A study of Homo sapiens with 54 samples.

Results

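Expression of 10 genes that write, copy or remove repressive chromatin marks (EZH1, EZH2, EED, SUZ12, DNMT1, DNMT3A, DNMT3B, UHRF1, TET1 and TET2) was followed through 54 prostate cancer xenograft tumours. The genes were taken by name from a table of 60642 human gene symbols, and all 10 were among the 17593 genes abundant enough to be tested. The tumours were grown from LNCaP cells (clone FGC), a human prostate cancer line that depends on androgens, placed subcutaneously in male NOD-SCID mice, which lack working B and T cells. The mice were 5 to 6 weeks old when obtained, and each tumour came from its own mouse.

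PRE-CX mice (n = 9) had mock surgery, received no drug and kept their androgens until the tumour reached 1000 mm3. The other 45 mice were castrated at a tumour size of about 200 mm3. POST-CX tumours (n = 8) were taken 1 week after castration, when serum prostate-specific antigen (PSA) was lowest, and CRPC tumours (n = 10) after castration-resistant relapse, seen as a return of PSA or as growth to the size limit. ENZS (n = 12) and ENZR (n = 15) mice were castrated and then given the androgen receptor antagonist enzalutamide by mouth at 10 mg/kg on 5 days per week. ENZS tumours were taken at the second PSA minimum on the drug, and ENZR tumours after relapse on it by the same signs. All groups therefore share 1 cell line, 1 clone and an immunodeficient host, and only ENZS and ENZR carry the drug.

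Expression was deposited as transcripts per 1000000 (TPM), which divides by transcript length and so allows levels of different genes to be compared. Mouse transcripts of the host were in the deposited total but not in the table, and human genes made up from 12.1% to 97.5% of it, with a median of 89.9%. Each tumour was therefore rescaled to 1000000 over human genes, and all levels below are rescaled TPM. ENZR mouse 87 (12.1% human) and POST-CX mouse 91 (27.9%) stood apart. Without these 2 tumours the members that passed the test described below numbered 5 in ENZS and 6 in ENZR against PRE-CX, as with them, and 3 rather than 2 in POST-CX against PRE-CX, with TET1 added (0.28, adjusted p = 0.0471 in limma). The luminal prostate markers were present in every tumour, KLK3 between 92.0 and 6828 and FOLH1 between 453 and 3362. Markers of stroma and blood cells, 20 in all and 13 of them with a median under 1, summed to between 19.8 and 33.2 in PRE-CX, 19.2 and 54.4 in POST-CX, 26.0 and 111 in CRPC, 43.0 and 325 in ENZS and 20.0 and 125 in ENZR, and none was at 0 in all tumours. Their part in the results was not tested beyond the values given with them as a covariate. They are human symbols in a table without mouse genes, so their sum does not measure the amount of mouse host cells. ENZR mouse 87 (12.1% human) had a sum of 125, against 325 in ENZS mouse 80 (80.3% human). In bulk RNA, fewer cells expressing a gene and less RNA per cell cannot be told apart.

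Polycomb repressive complex 2 (PRC2) places a repressive methyl mark on histone H3. EZH2 or its relative EZH1 is the catalytic subunit, and EED and SUZ12 are the core subunits that either enzyme needs. DNA methylation is copied after each round of replication by DNMT1, which UHRF1 guides to newly made strands, while DNMT3A and DNMT3B methylate new sites and TET1 and TET2 oxidise the methyl group as a step towards its loss. EZH2 and UHRF1 are known targets of the E2F factors that switch on genes for DNA synthesis, whereas EZH1 is known for expression in resting tissues. Raised EZH2 is a hallmark of aggressive prostate cancer.

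Promoters are shown for the 3 members that fell under enzalutamide and the 1 Polycomb enzyme that rose, so that the sequence upstream of each can be set beside its pattern. Windows run from 250 bases before to 50 bases after 1 annotated transcript start in RefSeq (build GRCh38.p14), and capitals mark E2F core words on either strand, which are TTCCCGC, the variant TTGGCGC, the variant TTCGCGC and the variant TTGCCGC. UHRF1 lies at chr19:4909251-4909550 (plus strand), EZH2 at chr7:148884242-148884541 (minus), DNMT1 at chr19:10194904-10195203 (minus) and EZH1 at chr17:42744991-42745290 (minus), each printed 5′ to 3′ on the strand of its gene.
UHRF1: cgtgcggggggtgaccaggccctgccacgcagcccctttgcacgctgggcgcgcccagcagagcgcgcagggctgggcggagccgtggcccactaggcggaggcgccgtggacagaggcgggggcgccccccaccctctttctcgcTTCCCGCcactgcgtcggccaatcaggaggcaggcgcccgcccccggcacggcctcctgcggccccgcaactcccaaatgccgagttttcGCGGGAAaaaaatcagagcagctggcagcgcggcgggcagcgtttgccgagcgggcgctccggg
EZH2: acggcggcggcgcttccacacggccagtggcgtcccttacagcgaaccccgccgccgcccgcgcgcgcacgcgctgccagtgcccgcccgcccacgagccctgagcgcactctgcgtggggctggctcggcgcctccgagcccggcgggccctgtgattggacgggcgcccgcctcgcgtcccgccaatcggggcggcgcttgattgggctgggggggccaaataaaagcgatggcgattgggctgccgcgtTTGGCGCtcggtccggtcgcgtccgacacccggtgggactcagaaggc
DNMT1: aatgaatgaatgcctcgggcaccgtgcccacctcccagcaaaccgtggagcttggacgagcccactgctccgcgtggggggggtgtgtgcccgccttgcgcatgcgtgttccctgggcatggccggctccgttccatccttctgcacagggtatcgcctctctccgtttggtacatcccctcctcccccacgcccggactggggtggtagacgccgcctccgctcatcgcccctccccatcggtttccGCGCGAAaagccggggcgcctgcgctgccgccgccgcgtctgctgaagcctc
EZH1: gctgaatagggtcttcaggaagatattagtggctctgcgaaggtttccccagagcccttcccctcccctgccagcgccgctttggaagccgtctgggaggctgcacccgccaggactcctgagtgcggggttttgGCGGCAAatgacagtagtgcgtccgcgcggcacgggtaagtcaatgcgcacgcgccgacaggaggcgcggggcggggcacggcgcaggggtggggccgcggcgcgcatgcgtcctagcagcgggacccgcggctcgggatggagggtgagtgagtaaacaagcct

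UHRF1 held 2 E2F core words that began at -104 and -14 from the start, and EZH2 held 1 that began at 3. DNMT1 held 1 word at -2 and EZH1 1 word at -115. SUZ12 also held 1 word, and the windows of EED, DNMT3A, DNMT3B, TET1 and TET2 held none. The DNMT3B window (chr20:32779602-32779901, plus strand) lay inside the gene, which begins at 32762385, and the UHRF1 window inside a gene that begins at 4903080. The DNMT3A window (chr2:25342434-25342733, minus strand) crossed the beginning of its gene at 25342590, with the searched start inside the gene. For each member only the 1 start was searched, so absence of a word there does not cover its other starts. Such a word was in 13.1% of 27305 promoters of this length, against 5 of the 10 members. Those 5 windows had 67.0% to 74.7% GC and 30 to 46 CG steps, against medians of 58.3% and 14 over all promoters. The words are themselves rich in G and C, and the counts were not adjusted for base composition. The DNMT3A window, without a word, had 74.3% GC. The CCAAT box (CCAAT on either strand), a common promoter element that was in 35.7% of promoters, occurred 4 times in EZH2, once each in EED, SUZ12, DNMT3B and UHRF1 and not in the other members. The CHR word (TTTGAA on either strand), which marks many mitotic genes and was in 15.4% of promoters, was in the windows of SUZ12 and TET2 only. No word of 1 motif overlapped a word of another, and these matches are descriptions of letters and not of bound sites.

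Cell division was summarised in each tumour by a division index, the mean log2(rescaled TPM + 1) of 24 mitosis and 30 DNA replication genes that include no member. The index lay between 4.53 and 5.35 in PRE-CX, 3.33 and 5.08 in POST-CX, 3.84 and 5.17 in CRPC, 2.17 and 3.91 in ENZS and 2.16 and 4.77 in ENZR. No ENZS tumour reached the PRE-CX range, and the only ENZR tumours within it were mouse 104 (4.74) and mouse 75 (4.77). At an adjusted p under 0.05 in limma, 28 of the 30 replication and all 24 mitosis genes fell in ENZS against PRE-CX, where 13.6% of all genes did. In ENZR 27 and 24 fell, where 13.8% of all genes did. These genes make up the index, so their counts restate its difference.

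Among the 10 members, SUZ12 and DNMT1 were the most abundant, at 39.4 ± 9.60 and 42.7 ± 12.2 in PRE-CX (SD, n = 9), and TET1 was the least, at 0.680 ± 0.159. In every 1 of the 40 pairs of groups that were neighbours in the order of a member's means, the ranges of the tumours overlapped.

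**Figure D1:**
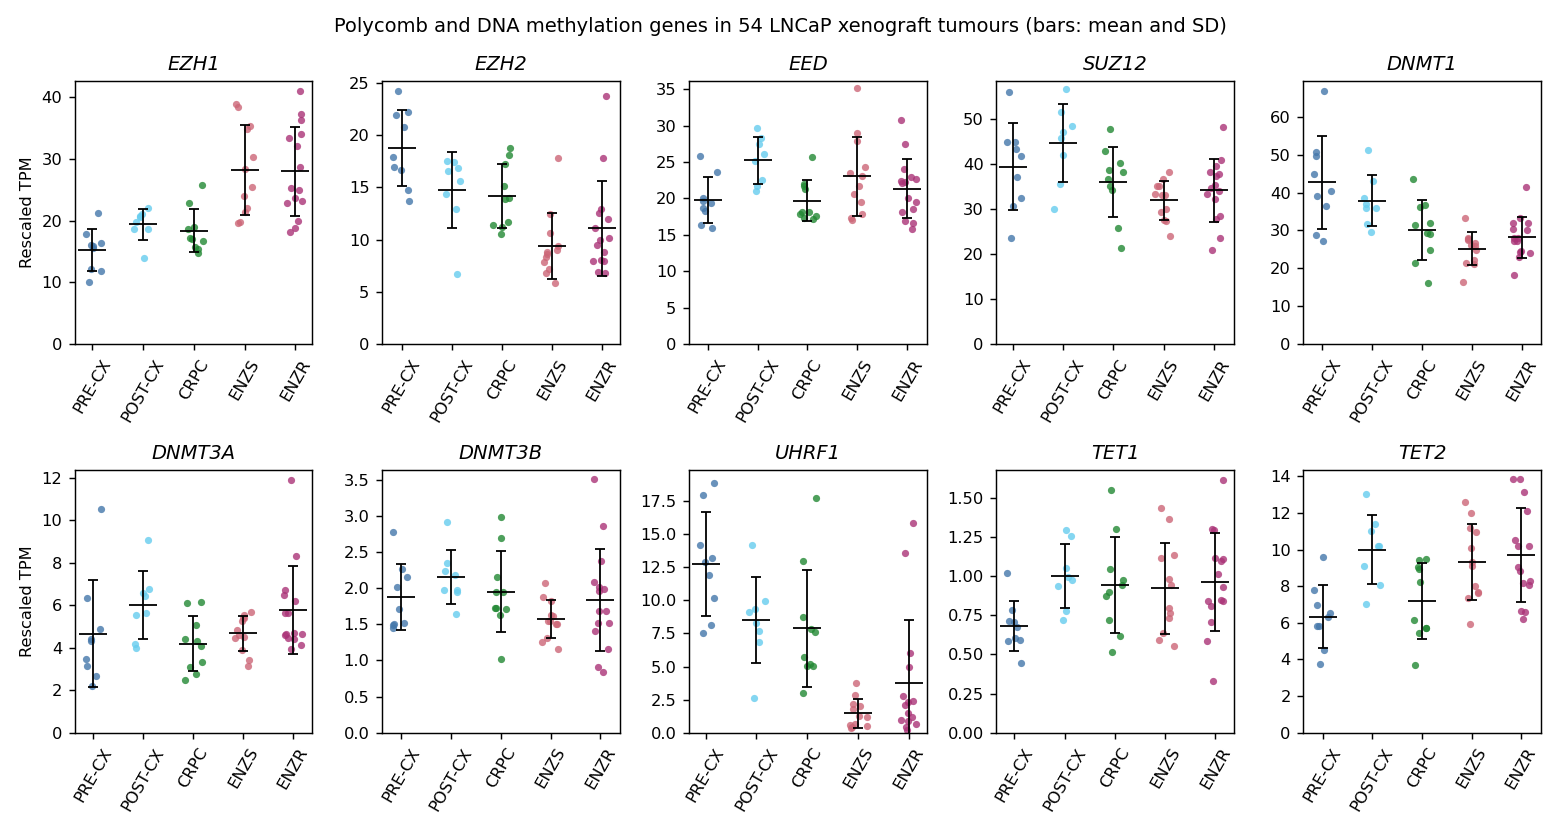
Rescaled TPM (y axis, from 0) of the 10 genes by group (x axis), with 1 point per tumour and bars for the mean and SD of 9 PRE-CX, 8 POST-CX, 10 CRPC, 12 ENZS and 15 ENZR tumours. UHRF1, EZH2 and DNMT1 were lowest in ENZS, EZH1 was highest in ENZS and ENZR, and 2 ENZR tumours stood at 13.6 and 15.9 for UHRF1, whose lower ENZR bar is clipped at 0.

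Against PRE-CX, the enzalutamide-treated tumours had less EZH2, DNMT1 and UHRF1 and more EZH1 and TET2. In ENZS, 5 of 10 members passed (2 higher, 3 lower) at an adjusted p under 0.05 in limma, a linear model over all tumours, where 61.1% of all genes passed (47.5% higher, 13.6% lower). In ENZR, 6 passed (3 higher, 3 lower), where 58.4% of all genes did (44.6% higher, 13.8% lower). Both shares are near the background, so the counts themselves set the members apart from other genes in neither comparison. The 2 comparisons share the PRE-CX tumours.

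EZH2, the main catalytic subunit of PRC2, ranged from 13.7 to 24.3 in PRE-CX with a median of 17.9. It ranged from 5.80 to 17.8 in ENZS (median 8.73) and from 6.83 to 23.8 in ENZR (median 9.97). Of the ENZS tumours 11 of 12, and of the ENZR tumours 13 of 15, lay below the lowest PRE-CX tumour, so the groups overlapped only through a few high tumours. EZH2 fell by 0.96 on the log2 scale in ENZS (SE 0.17, adjusted p = 2.78e-06 in limma) and by 0.76 in ENZR (SE 0.16, adjusted p = 6.44e-05). In POST-CX, EZH2 was at 14.8 ± 3.61 (SD, n = 8) and in CRPC at 14.2 ± 3.05 (n = 10), differences from PRE-CX of -0.35 (adjusted p = 0.146) and -0.38 (adjusted p = 0.109) that did not pass in limma. Relative to the median gene, EZH2 passed as lower in POST-CX (-0.55, adjusted p = 0.0389). With the stroma and blood sum as a covariate, added after the data were seen, the EZH2 difference was -0.50 in ENZS (adjusted p = 0.0286) and -0.32 in ENZR (adjusted p = 0.171), so that the call in ENZR was lost.

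EZH1, the alternative catalytic subunit, moved the other way. It ranged from 10.1 to 21.3 in PRE-CX (median 15.9), from 19.6 to 38.9 in ENZS (median 27.0) and from 18.2 to 41.1 in ENZR (median 25.3). All 12 ENZS and 15 ENZR tumours lay above the PRE-CX median, and 10 of 12 ENZS and 12 of 15 ENZR tumours lay above the whole PRE-CX range. EZH1 rose by 0.84 in ENZS (SE 0.14, adjusted p = 8.86e-07 in limma) and by 0.83 in ENZR (SE 0.13, adjusted p = 7.15e-07), both on the log2 scale. In POST-CX (19.5 ± 2.50) and CRPC (18.4 ± 3.50) the differences of 0.35 and 0.27 did not pass (adjusted p = 0.0735 and 0.186).

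The balance of the 2 enzymes differed between the groups. The ratio of EZH2 to EZH1 was above 1 in 8 of 9 PRE-CX tumours, with a median of 1.35 and a range of 0.827 to 1.48. It was above 1 in 1 of 8 POST-CX (median 0.765), 3 of 10 CRPC (median 0.741), 0 of 12 ENZS (median 0.289) and 1 of 15 ENZR tumours (median 0.345). EZH1 thus exceeded EZH2 in most castrated mice and in every ENZS tumour, a comparison of TPM and not of protein.

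**Figure D2:**
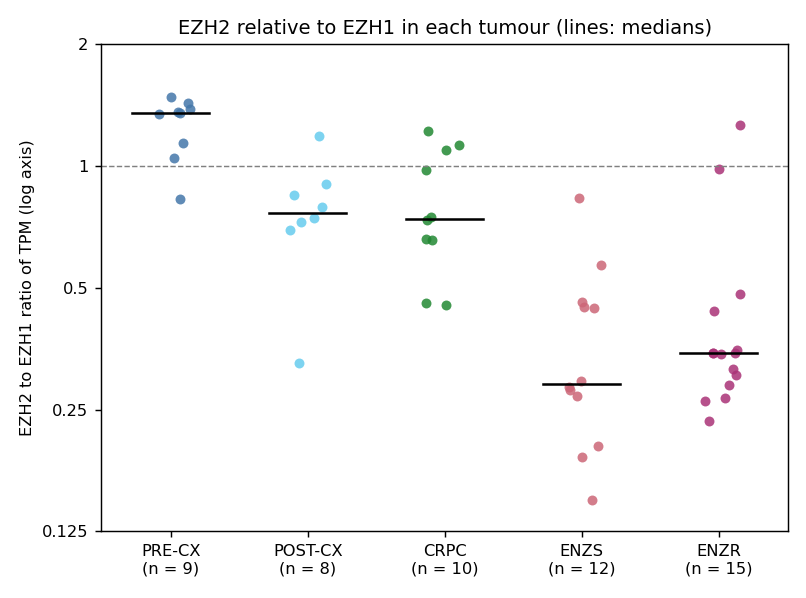
Ratio of EZH2 to EZH1 TPM (y axis, log scale) by group (x axis), with 1 point per tumour, lines at the group medians and a dashed line at a ratio of 1. Of the 9 PRE-CX tumours 8 lie above the dashed line, against 0 of 12 ENZS and 1 of 15 ENZR tumours.

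The core subunits were less clearly placed. EED, which binds the mark and activates the enzyme, was at 19.8 ± 3.20 in PRE-CX, 25.2 ± 3.19 in POST-CX, 19.7 ± 2.84 in CRPC, 23.1 ± 5.42 in ENZS and 21.4 ± 4.09 in ENZR (SD). EED rose by 0.34 in POST-CX (SE 0.12, adjusted p = 0.0287 in limma), with 4 of 8 tumours above the PRE-CX range, and passed in no other comparison of groups. That call was lost without PRE-CX mouse 62 or 111 or POST-CX mouse 44, 66 or 99, each left out alone, with adjusted p between 0.0523 and 0.0642. It was also lost for EED relative to the median gene (0.15, adjusted p = 0.288), with TPM as deposited (0.09, adjusted p = 0.88) and with no expression filter (adjusted p = 0.0501). SUZ12, the scaffold of the complex, was at 44.6 ± 8.59 in POST-CX, 36.1 ± 7.76 in CRPC, 31.9 ± 4.27 in ENZS and 34.1 ± 6.94 in ENZR, and passed in none. The SUZ12 difference from PRE-CX was -0.27 in ENZS (95% interval -0.53 to -0.01, adjusted p = 0.0668), and all 12 ENZS tumours lay below the PRE-CX median. Set relative to the median gene of each tumour, SUZ12 passed as lower in ENZS (-0.56) and ENZR (-0.45, adjusted p = 0.000364 in limma). Its residual r with EZH2 over 54 tumours was 0.396, and a difference between the changes of SUZ12 and EZH2 was not tested. A pseudogene copy, SUZ12P1, was listed at 8.22 to 20.0, and EZH2P1 at up to 1.36, and reads shared with such copies were divided by estimation, so that the levels of SUZ12 and, less so, EZH2 are uncertain.

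In POST-CX against PRE-CX 2 of 10 members passed, EED and TET2, both higher, where 26.3% of all genes passed and 20.6% passed as higher. In CRPC against PRE-CX 1 of 10 passed, DNMT1, as lower, where 20% of all genes passed and 5.87% passed as lower. ENZS against CRPC compares the drug response with untreated relapse, both after castration, and 4 of 10 passed, 2 in each direction, where 37.8% of all genes did (31.4% higher, 6.41% lower). UHRF1 fell by 1.83 there (SE 0.32, adjusted p = 4.31e-05 in limma) and EZH2 fell by 0.57 (SE 0.16, adjusted p = 0.00488), while EZH1 rose by 0.57 (SE 0.13, adjusted p = 0.00093) and TET2 by 0.35 (SE 0.14, adjusted p = 0.0458). The EZH2 call was lost with the stroma and blood sum as a covariate (-0.35, adjusted p = 0.0965) and with TPM as deposited (-0.63, adjusted p = 0.0996), and the EZH1 call with TPM as deposited (0.50, adjusted p = 0.169), while UHRF1 kept its call in both. The TET2 call was lost in both too (adjusted p = 0.196 and 0.461) and when any 1 of 12 CRPC or ENZS tumours was left out, with adjusted p up to 0.132, among them ENZS mouse 80, the tumour with the highest stroma and blood sum (adjusted p = 0.0863 without it).

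UHRF1, the guide of maintenance methylation, had the largest difference of the 10 members. It ranged from 7.54 to 18.9 in PRE-CX (median 12.9), 2.62 to 14.2 in POST-CX (median 8.72) and 3.0 to 17.8 in CRPC (median 6.65). In ENZS it ranged from 0.349 to 3.76 (median 1.22) and in ENZR from 0.229 to 15.9 (median 2.12). All 12 ENZS tumours lay below the lowest PRE-CX tumour, with no overlap, and so did 13 of 15 ENZR tumours. UHRF1 fell by 2.55 on the log2 scale in ENZS (SE 0.33, adjusted p = 8.81e-09 in limma) and by 1.98 in ENZR (SE 0.32, adjusted p = 9.56e-07). In POST-CX and CRPC the UHRF1 differences of -0.57 and -0.72 did not pass (adjusted p = 0.245 and 0.139).

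DNMT1, the maintenance methyltransferase, fell less. It ranged from 27.2 to 67.0 in PRE-CX (median 40.4), 16.2 to 43.7 in CRPC (median 30.4), 16.5 to 33.4 in ENZS (median 26.2) and 18.3 to 41.5 in ENZR (median 27.9). The groups overlapped, with 8 of 12 ENZS, 7 of 15 ENZR and 3 of 10 CRPC tumours below the PRE-CX range. DNMT1 fell by 0.71 in ENZS (SE 0.14, adjusted p = 1.56e-05 in limma), by 0.55 in ENZR (SE 0.13, adjusted p = 0.00034) and by 0.49 in CRPC (SE 0.14, adjusted p = 0.0106). The DNMT1 call in CRPC was lost with the stroma and blood sum as a covariate (-0.44, adjusted p = 0.0503) and with TPM as deposited (-0.45, adjusted p = 0.319). In POST-CX, at 37.9 ± 6.80, DNMT1 differed by -0.14 (adjusted p = 0.518). The median ratio of UHRF1 to DNMT1 was 0.282 in PRE-CX, 0.0502 in ENZS and 0.0704 in ENZR.

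The de novo enzymes, which methylate new sites, were low. DNMT3A was at 4.66 ± 2.53 in PRE-CX, 6.02 ± 1.61 in POST-CX, 4.18 ± 1.3 in CRPC, 4.68 ± 0.838 in ENZS and 5.76 ± 2.07 in ENZR, and passed in no comparison of groups. PRE-CX mouse 67 (10.5) and ENZR mouse 72 (11.9) held the highest DNMT3A of their groups. DNMT3B was at 1.88 ± 0.460, 2.15 ± 0.377, 1.95 ± 0.557, 1.57 ± 0.265 and 1.83 ± 0.707 in the same order and passed in none without the index. DNMT3A exceeded DNMT3B in every tumour, and the median ratio of DNMT3B to DNMT3A was 0.431 in PRE-CX and 0.300 in ENZR.

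TET2, an enzyme that oxidises methylated cytosine, ranged from 3.73 to 9.60 in PRE-CX (median 6.31), 7.05 to 13.0 in POST-CX (median 10.2), 3.70 to 9.51 in CRPC (median 7.18), 5.92 to 12.6 in ENZS (median 9.21) and 6.19 to 13.8 in ENZR (median 9.06). The groups overlapped, with 5 of 8 POST-CX, 5 of 12 ENZS and 7 of 15 ENZR tumours above the PRE-CX range. TET2 rose by 0.60 in POST-CX (SE 0.16, adjusted p = 0.00495 in limma), 0.50 in ENZS (SE 0.15, adjusted p = 0.00296) and 0.54 in ENZR (SE 0.14, adjusted p = 0.000951), and differed by 0.15 in CRPC (adjusted p = 0.531). With the stroma and blood sum as a covariate, TET2 kept its call in POST-CX (0.57, adjusted p = 0.00849) and lost it in ENZS (0.34, adjusted p = 0.146) and ENZR (0.38, adjusted p = 0.0949). With TPM as deposited all 3 TET2 calls were lost (adjusted p = 0.448, 0.0916 and 0.205). TET1, its relative, was low throughout, at 0.680 ± 0.159 in PRE-CX and 0.962 ± 0.315 in ENZR, where it rose by 0.21 (SE 0.09, adjusted p = 0.0498). The TET1 call was lost when any 1 of 38 tumours was left out (adjusted p up to 0.103), and the pseudocount of 1 understates changes at such a level.

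These differences stand on the rescaled scale, on which the median of all tested genes was itself higher than in PRE-CX by 0.29 in ENZS, 0.25 in ENZR, 0.16 in POST-CX and 0.08 in CRPC. Set relative to the median gene of each tumour, the ENZS differences were -2.84 for UHRF1, -1.25 for EZH2, -1.01 for DNMT1 and 0.54 for EZH1, and all 4 still passed. SUZ12 (-0.56, adjusted p = 2.61e-05 in limma) and DNMT3B (-0.45, adjusted p = 0.0024) then passed as lower as well. The TET2 difference shrank to 0.21 in ENZS (adjusted p = 0.115) and TET1 in ENZR turned to -0.05 (adjusted p = 0.66), so these calls of the TET genes depended on the scale.

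The question of which changes follow cell division was put in a second limma fit with the division index beside the group means. With group means removed, the index had an r of -0.538 with the log2 stroma and blood sum over 54 tumours. The r of the members with that sum ran from -0.519 (UHRF1) and -0.505 (EZH2) to 0.411 (EED). The parts of the index and of that sum in the slopes were not tested apart. The slope of a member on the index, held within groups, passed for 5 of 10 members (4 higher, 1 lower), where 30.3% of all genes passed (10% higher, 20.2% lower) with a median slope of -0.05. UHRF1 rose by 1.28 log2 units per unit of index (SE 0.06, adjusted p = 1.93e-24) and EZH2 by 0.56 (SE 0.05, adjusted p = 9.34e-13). DNMT3B rose by 0.29 (SE 0.05, adjusted p = 1.33e-05) and DNMT1 by 0.25 (SE 0.07, adjusted p = 0.00306). EZH1 had a slope of -0.20 (SE 0.07, adjusted p = 0.0269), a call that was lost without ENZR mouse 75 (adjusted p = 0.0814) or 104 (0.0801). The slopes of EED (-0.13), SUZ12 (0.12), TET2 (-0.07), DNMT3A (-0.03) and TET1 (0.02) did not pass, with adjusted p between 0.0714 and 0.822.

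**Figure D3:**
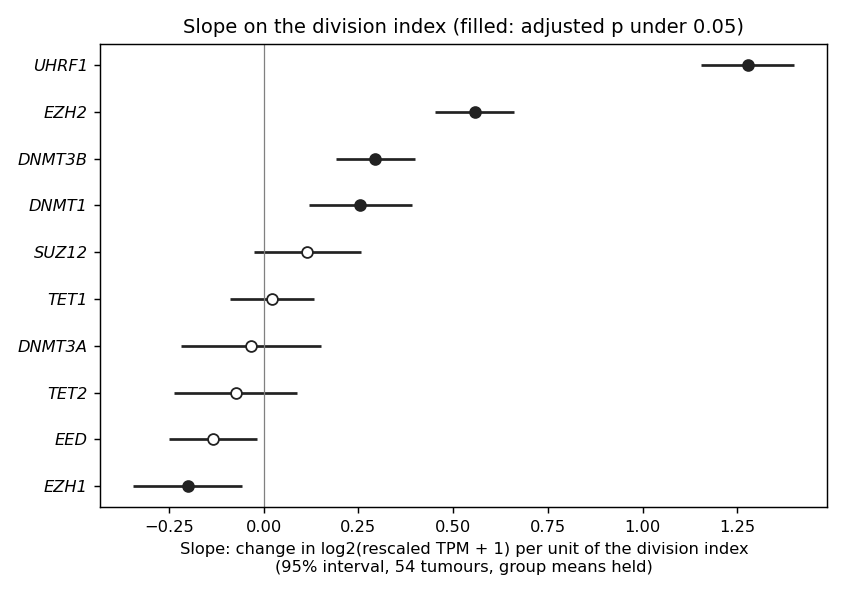
Slope of each gene on the division index (x axis, change in log2(rescaled TPM + 1) per unit of the index) with its 95% interval over 54 tumours and group means held, filled where the adjusted p was under 0.05. UHRF1 (1.28), EZH2 (0.56), DNMT3B (0.29) and DNMT1 (0.25) lie above 0 and EZH1 (-0.20) below it.

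With the index in the fit, none of the 3 members that fell passed as lower. UHRF1 went from -2.55 to 0.08 in ENZS against PRE-CX (95% interval -0.25 to 0.42, adjusted p = 0.782 in limma) and from -1.98 to 0.01 in ENZR (-0.28 to 0.30, adjusted p = 0.964). EZH2 went from -0.96 to 0.19 in ENZS (-0.10 to 0.47, adjusted p = 0.407) and from -0.76 to 0.10 in ENZR (-0.14 to 0.35, adjusted p = 0.573). DNMT1 went from -0.71 to -0.19 (-0.56 to 0.19, adjusted p = 0.537) and from -0.55 to -0.16 (-0.47 to 0.16, adjusted p = 0.507). In CRPC, where the index overlapped that of PRE-CX, DNMT1 kept a difference of -0.36 (-0.63 to -0.10) with an adjusted p of 0.0546.

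Since no ENZS tumour had an index within the PRE-CX range, the ENZS values with the index extend a line beyond shared data, and a missed threshold there does not show equal levels. In this fit 1 of 10 members passed in ENZS against PRE-CX, where 10.3% of all genes did, and 2 of 10 in ENZR, where 19.1% did. DNMT3B was higher than its index would place it, by 0.45 in ENZS (SE 0.14, adjusted p = 0.0303 in limma) and 0.42 in ENZR (SE 0.12, adjusted p = 0.0118). Both DNMT3B calls were lost without ENZR mouse 104 (adjusted p = 0.0755 and 0.054), which had the highest DNMT3B of all tumours at 3.51, and the ENZS call also without PRE-CX mouse 58 (0.0532) or ENZR mouse 87 (0.0627). Relative to the median gene, DNMT3B passed in neither ENZS (0.35, adjusted p = 0.143) nor ENZR (0.31, adjusted p = 0.0818), and a pseudocount of 0.1 (adjusted p = 0.0546) or no expression filter (0.0529) also ended the ENZS call.

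EZH1 kept a rise of 0.51 in ENZR with the index (SE 0.17, adjusted p = 0.0237 in limma), which was lost without PRE-CX mouse 58 (adjusted p = 0.0733) or ENZR mouse 94 (0.0749) and relative to the median gene (0.29, adjusted p = 0.189). In ENZS EZH1 stood at 0.43 (95% interval 0.03 to 0.82, adjusted p = 0.146). TET2 kept 0.57 in POST-CX (SE 0.16, adjusted p = 0.0103), the only 1 of 10 members to pass there with the index, where 20.8% of all genes did. In CRPC against PRE-CX 0 of 10 passed with the index, where 13.6% of all genes did. Of the members, DNMT1 alone had an unadjusted p under 0.05 there, as did 26.7% of all genes. In ENZS against CRPC 0 of 10 members and 0% of all genes passed with the index in limma, with 2 members (DNMT3B and EZH2) and 2334 genes at an unadjusted p under 0.05.

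**Figure D4:**
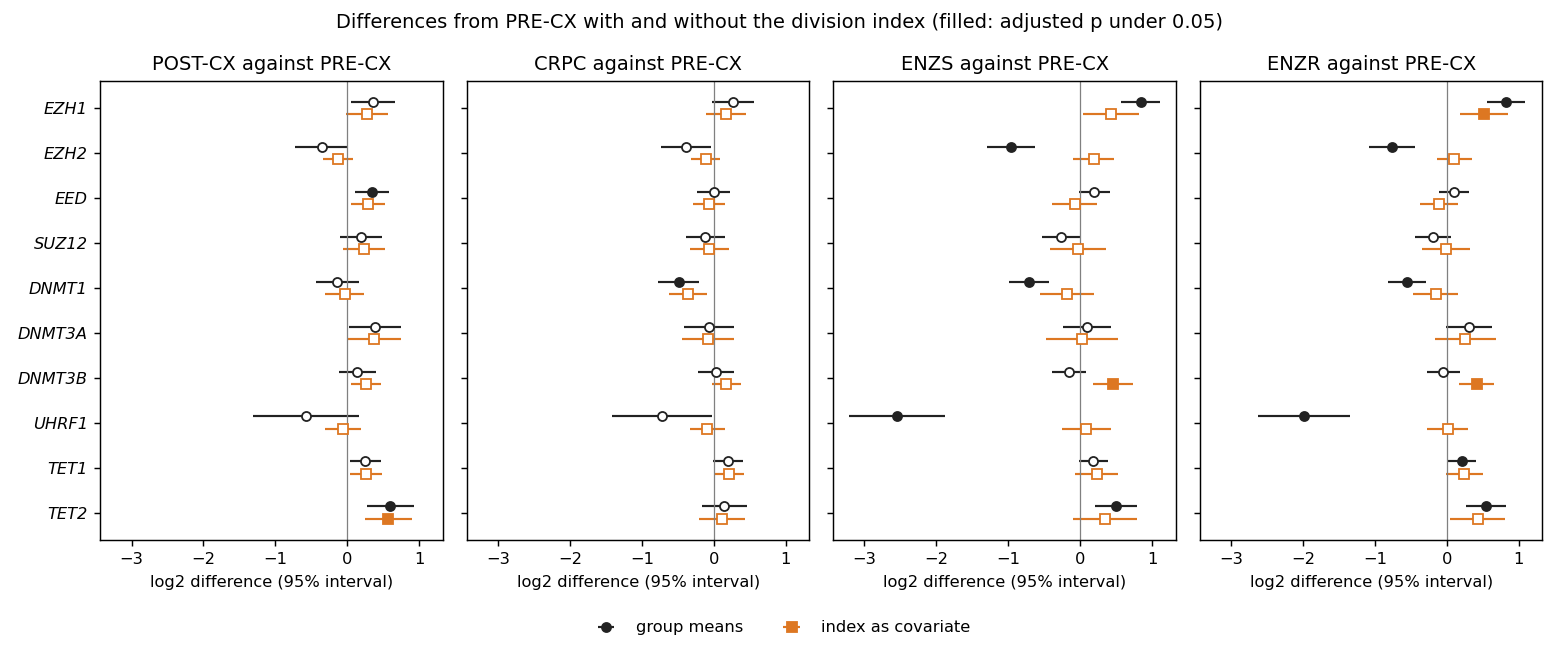
Log2 difference from PRE-CX (x axis, with 95% interval) of the 10 genes in 4 groups, from group means alone (black circles) and with the division index as a covariate (orange squares), filled where the adjusted p was under 0.05. In ENZS and ENZR the black points of UHRF1, EZH2 and DNMT1 lie left of 0 and their orange points lie near 0, while EZH1 stays to the right in both fits.

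Within single groups, where the treatment is the same for every tumour, 15 of 50 correlations of a member with the index passed (permutation tests, Benjamini-Hochberg over 50), and 13 did by rank. These correlations were run for the members only, so no share over all genes can be set beside the counts. UHRF1 passed in all 5 groups, with Pearson's r from 0.924 in PRE-CX to 0.981 in POST-CX and Spearman's rho from 0.857 to 0.968. In ENZR, UHRF1 had r = 0.962 and rho = 0.968 (n = 15), and both had a permutation p of 1e-05, the smallest that 100000 resamples can give. EZH2 passed in CRPC (r = 0.958, rho = 0.903, adjusted permutation p = 0.000375 and 0.007), ENZS (r = 0.765, rho = 0.706, 0.0129 and 0.0498) and ENZR (r = 0.878, rho = 0.839, 0.000333 and 0.00417). In PRE-CX and POST-CX the EZH2 r of 0.763 and 0.919 had adjusted exact permutation p of 0.0593 and 0.072.

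DNMT1 passed in CRPC (r = 0.815, rho = 0.830, adjusted permutation p = 0.0156 and 0.0233) and by r in ENZR (r = 0.630, 0.0383; rho = 0.550, 0.0914). In ENZS, DNMT1 had an r of -0.0387, and whether this differs from the other groups was not tested. EZH1 passed as negative in ENZS alone (r = -0.815, rho = -0.860, adjusted permutation p = 0.00815 and 0.00575), and DNMT3B in ENZR (r = 0.777, rho = 0.721, 0.00441 and 0.0203). SUZ12 passed as positive in PRE-CX (r = 0.775) and POST-CX (r = 0.909), by exact permutation tests with adjusted p of 0.045 and 0.00207. By rank it passed in POST-CX (rho = 0.905, adjusted permutation p = 0.0233) and CRPC (rho = 0.830, 0.0233) and not in PRE-CX (rho = 0.750, 0.0811). In ENZS the SUZ12 r was negative (-0.518, adjusted permutation p = 0.147). EED passed as negative in ENZR by r (r = -0.670, adjusted permutation p = 0.0242) and not by rank (rho = -0.561, 0.0909).

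With the 2 tumours farthest from the median index left out of each group, 5 of 50 correlations passed, UHRF1 in CRPC, ENZS and ENZR and EZH2 in CRPC and ENZR. The other 10 no longer passed at the smaller n and over a narrower index, with r of the same sign. Of these, UHRF1 went from 0.924 to 0.827 in PRE-CX and from 0.981 to 0.796 in POST-CX, SUZ12 from 0.909 to 0.866 in POST-CX, and EZH1 from -0.815 to -0.776 in ENZS. The r of DNMT1 in ENZR went from 0.630 to 0.417. In POST-CX the EZH2 r went from 0.919 to 0.243 without them, the 2 including mouse 91.

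**Figure D5:**
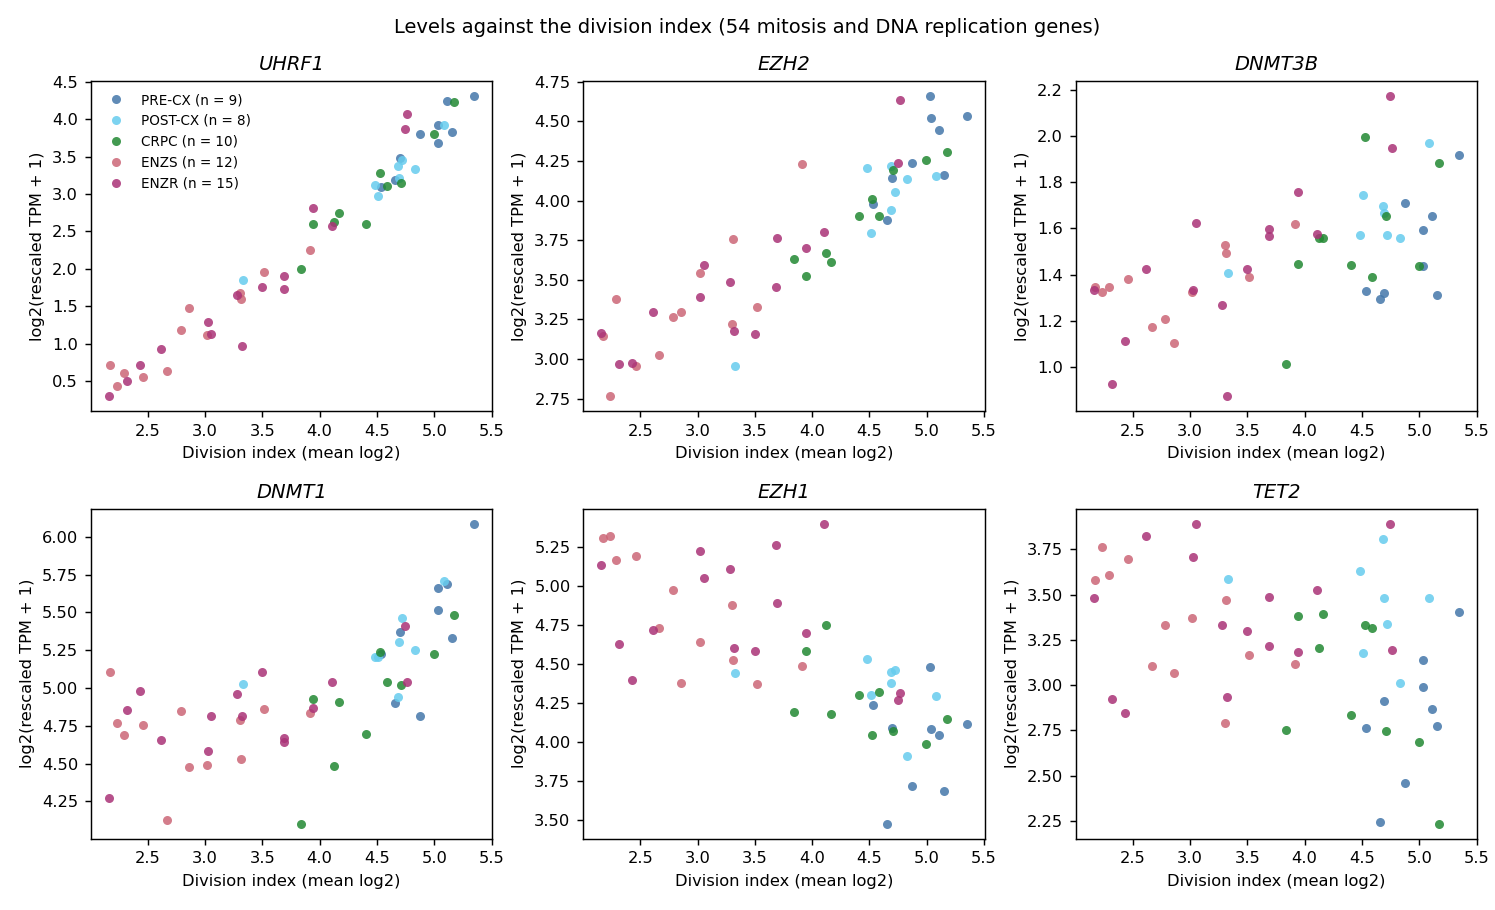
log2(rescaled TPM + 1) of 6 genes (y axes, each with its own range) against the division index (x axis), with 1 point per tumour coloured by group. UHRF1 and EZH2 of all 5 groups lie along 1 rising band, DNMT1 and DNMT3B rise with a wider spread, EZH1 is highest at a low index, and TET2 shows no clear band.

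The pair of relapsed tumours with a PRE-CX-like index can be read mouse by mouse. ENZR mouse 104 had 13.6 UHRF1, 17.9 EZH2, 41.5 DNMT1, 3.51 DNMT3B and 18.2 EZH1, and ENZR mouse 75 had 15.9 UHRF1, 23.8 EZH2, 32.0 DNMT1, 2.86 DNMT3B and 18.8 EZH1. In both mice UHRF1, EZH2, DNMT1 and EZH1 fell within the PRE-CX range, and DNMT3B lay above it. No other ENZR tumour exceeded 6.04 UHRF1 or 13.0 EZH2. These 2 tumours were picked by the index and not by a label, so their values are given without a test.

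No member passed in either relapse step. In ENZR against ENZS 0 of 10 members and 0% of all genes passed in limma, with 0 members and 1752 genes at an unadjusted p under 0.05. The largest member difference was 0.56 for UHRF1 (95% interval -0.02 to 1.15, adjusted p = 0.516), with all other members between -0.10 and 0.22. In CRPC against POST-CX 0 of 10 members and 0.0625% of all genes passed. At an unadjusted p under 0.05 were 5 members (DNMT1, DNMT3A, EED, SUZ12 and TET2), with differences from -0.31 to -0.45, and 12.8% of all genes. With the index 0 of 10 members passed in CRPC against POST-CX (0.489% of all genes) and 0 of 10 in ENZR against ENZS (0% of all genes). At an unadjusted p under 0.05 were the same 5 members (15.3% of all genes) and 0 members (5.94% of all genes). The difference between these relapse steps also passed for 0 of 10 members, against 0.199% of all genes. There 4 members (DNMT1, DNMT3A, SUZ12 and TET2) had an unadjusted p under 0.05, as did 13.5% of all genes.

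Other genes of the Polycomb system were taken as lists and read against all genes, of which 47.5% rose and 13.6% fell in ENZS against PRE-CX. Of 9 tested PRC2 accessory proteins, 3 rose and 3 fell in ENZS against PRE-CX, with a median difference of -0.16 against 0.29 over all genes. PHF1, which tethers PRC2 to chromatin, rose by 1.10 (from 24.9 ± 6.15 to 54.3 ± 11.2, adjusted p = 7.56e-08 in limma), JARID2 rose by 0.53 (adjusted p = 0.00342), and EPOP fell by 1.07 (from 7.38 ± 1.77 to 3.21 ± 1.66). EZHIP, an inhibitor of EZH2, was at most 0.0448. Of 19 genes of PRC1, the complex that reads the mark, 9 rose and 3 fell (median 0.32 against 0.29), shares near those of all genes. Among the 9, CBX7, a reader subunit, rose by 1.59 (from 6.33 ± 1.29 to 21.3 ± 5.13), BMI1 by 1.14 and PHC1 by 1.13. CBX7 kept a rise of 0.88 with the index (adjusted p = 0.00293 in limma), while BMI1 (0.54, adjusted p = 0.079) and PHC1 (0.57, adjusted p = 0.0837) did not pass. In that fit 3 of the 19 passed as higher and 1 as lower, where 10.3% of all genes passed.

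KDM6A, which removes the mark, rose by 1.22 in ENZS (SE 0.13, from 99.5 ± 28.8 in PRE-CX to 227 ± 35.4), by 1.16 in POST-CX and by 0.79 in CRPC, and by 0.72 in ENZS with the index (adjusted p = 0.00543 in limma). Its relative KDM6B differed by 0.13 (adjusted p = 0.412). Of 16 tested partners of DNA methylation, 3 rose and 6 fell in ENZS (median -0.16), where 13.6% of all genes fell. CDCA7, which recruits the remodeller HELLS, fell by 2.01 (from 10.3 ± 2.18 to 1.91 ± 0.982), HELLS by 1.59 and TDG, a glycosylase that excises oxidised methylcytosine, by 0.87. With the index these were 0.19, -0.28 and -0.25 and none of the 3 passed, where 10.3% of all genes did. Their slopes were 1.07, 0.64 and 0.30 and all passed, where 10% of all genes passed as higher.

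Of 8 E2F and RB family genes, 5 fell and 2 rose in ENZS, where 13.6% of all genes fell and 47.5% rose. E2F1 fell by 2.18 (from 19.9 ± 3.57 to 4.03 ± 2.33), E2F8 by 1.81 and E2F7 by 1.73. With the index, 0 of the 8 passed in ENZS in limma, where 10.3% of all genes did, so the count does not set the list apart. Of 6 tested genes known as silenced by EZH2 in prostate cancer, 4 rose and 1 fell in ENZS (median 0.65 against 0.29), where 47.5% of all genes rose, and a count of 6 genes does not set the list apart. CDH1, the epithelial cadherin, rose by 1.07 (from 261 ± 96.7 to 521 ± 125) and DAB2IP, a RAS GTPase activator, by 1.03, whereas MSMB, a secreted prostate protein that androgens induce, fell by 1.77. With the index 1 of the 6, PEBP1, passed as higher (0.52, adjusted p = 0.00723 in limma), where 8.51% of all genes did.

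Of 13 genes listed as silenced by DNA methylation, 3 reached the level for testing, as did 17593 of all 60642 genes. RASSF1 among them had a median of 14.9 and was at 1 or more in all 54 tumours. SOHLH2 had a median of 5.08 and was at 1 or more in 48, so the list holds genes that were expressed here. The other 10 did not reach the level for testing, though some of these were detected. SYCP3, a meiotic gene, reached 3.21 and was at 0 in 1 tumour, and BRDT, a testis bromodomain gene, reached 1.35 and was at 1 or more in 6 tumours. GSTP1, whose promoter is methylated in most prostate cancers and in LNCaP, was at most 0.170 and at 0 in 51 of 54 tumours. The germline genes DAZL, SYCE1 and TEX101 were at most 0.0233, 0.118 and 0.0747, and SPO11 was at 0 in all 54. Of the 3 tested, 2 rose in ENZS, where 47.5% of all genes did, and a count of 3 genes does not set the list apart. MAEL, a germline gene, rose by 1.13 in ENZS (from 0.386 ± 0.230 to 2.07 ± 0.705, adjusted p = 2.82e-07 in limma). With the index MAEL did not pass (0.53, adjusted p = 0.148). SOHLH2, a germline factor, rose by 1.16 in ENZS (from 2.75 ± 2.00 to 7.78 ± 4.71, adjusted p = 0.0213) and by 2.14 with the index (adjusted p = 0.0278). In ENZR SOHLH2 did not pass (0.63, adjusted p = 0.202). RASSF1 differed by -0.04 in ENZS (adjusted p = 0.782 in limma).

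The genes most like each member, by Pearson's r over 54 tumours after group means were removed, are given as descriptions, since these r share libraries and composition. UHRF1 was most like DTL (0.956), MCM10 (0.954) and TICRR (0.947), and EZH2 was most like MCM10 (0.885), ERCC6L (0.875) and RFC5 (0.874), genes of DNA replication, repair and mitosis. DNMT3B was most like XRCC2 (0.775), ESPL1 (0.756) and UHRF1 (0.753), and DNMT1 was most like TCOF1 (0.731), LRRC45 (0.718) and INCENP (0.711). EZH1 was most like DDX17 (0.820), ZFHX4 (0.805) and TTC17 (0.767), and TET2 was most like KIAA1109 (0.861), TAOK1 (0.818) and FAM160A1 (0.814). SUZ12 was most like SMC3 (0.875), ESF1 (0.821) and AHCTF1 (0.821), and EED was most like ZFC3H1 (0.759), AC027020.2 (0.754) and CPB2-AS1 (0.686). DNMT3A was most like TP53BP1 (0.759), FAM160A2 (0.740) and MYO18A (0.734), and TET1 was most like AC025031.4 (0.762), FAM160A1 (0.733) and ZKSCAN8 (0.716). Between members, the residual r was 0.848 for UHRF1 with EZH2, 0.559 for UHRF1 with DNMT1, -0.366 for UHRF1 with EZH1 and 0.581 for TET1 with TET2.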

How the data were processed

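RNA-seq of 54 LNCaP xenograft tumours was used. Per the labels, polyadenylated RNA was sequenced as strand-specific paired ends, about 40 M read pairs per sample. The authors processed the reads with FastQC 0.11.9, Trim Galore 0.6.5, STAR 2.7.2b and RSEM 1.3.3 (versions from the submitters' processing notes) against human GRCh38 and mouse GRCm38 together, and deposited TPM per human gene symbol, without mouse genes. TPM hold no read depth, so precision rests on the spread between tumours.

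Each tumour was rescaled to 1000000 TPM over human genes and analysed as log2(rescaled TPM + 1). Genes at 1 or more in at least 8 tumours (17593) were fitted with limma 3.58.1 in R 4.3.3 as 5 group means with the trend option, with Benjamini-Hochberg adjustment over all genes within each of 7 comparisons. A second fit added the division index. A gene passed at a two-sided adjusted p under 0.05. Within-group correlations used permutation tests written in numpy 2.4.6, exact for groups under 10 tumours and otherwise with 100000 resamples. Their ranks and adjustment came from scipy 1.17.1. The limma fits were tested on simulated data. Alternatives covered the scale, the pseudocount, the filter, the index genes and each tumour left out. The genes named are the 10 members, the 3 genes most correlated with each, and from each list up to 3 genes with the largest difference among those passing in ENZS against PRE-CX. Other genes named (KDM6B, PEBP1, RASSF1 and the untested genes of the lists) were chosen after their values were seen. The members and lists were chosen with earlier results of these data known. The labels give no batch and no mouse number is shared between groups. Positions and promoters came from RefSeq on GRCh38.p14, where all 10 members matched.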

Additional observations from a re-analysis of the deposited data

Results flagged for a closer look

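Of 30 sets of values (10 members in PRE-CX, POST-CX and CRPC), 3 held a tumour far from the others of its group by Dixon's gap, where chance gives about 1 in 20. POST-CX mouse 91 had 6.74 EZH2 while the other 7 POST-CX tumours lay between 12.9 and 17.6. It also had 2.62 UHRF1 while the others lay between 6.85 and 14.2. This tumour was 27.9% human, had a division index of 3.33 against 4.48 to 5.08 in the others, and had a stroma and blood sum of 54.4, the highest of the group, and their part in the low values was not tested. POST-CX mouse 48, 59.7% human, had 14.02 EZH1 while the others lay between 18.6 and 22.1.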

How the results depend on the processing

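No paired analysis was possible because the groups share no mouse number. Alternatives other than leaving out 1 tumour gave 1120 values of members. Of these, 1046 kept their side of the threshold, 33 lost the call, 33 gained it and 8 turned direction with a call in at least 1 setting. Values that passed in neither setting were counted as kept even where their sign changed. Such a change of sign occurred 203 times over all alternatives, those with 1 tumour left out included. With TPM as deposited, the number of members passing went from 2 to 0 in POST-CX, 1 to 0 in CRPC (both against PRE-CX) and 4 to 1 in ENZS against CRPC. With the index it went from 1 to 0 in POST-CX, 1 to 8 in ENZS, 2 to 5 in ENZR and 0 to 8 in ENZS against CRPC, slopes from 5 to 10 and correlations from 15 to 28. On that scale the slopes of DNMT3A (0.28), EED (0.29), EZH1 (0.28) and TET2 (0.30) turned positive, as did the values with the index of EED (0.76) and SUZ12 (0.75) in ENZS against PRE-CX and of EED (0.60) in ENZS against CRPC. The human share of each tumour scales all its genes there, the index included. Shares over all genes were not counted under the alternatives, so whether these changes in count are particular to the members was not tested. Median centred, TET1 in ENZR turned to -0.048, and with the index the counts were 1 in CRPC, 0 in ENZS (DNMT3B lost) and 0 in ENZR (DNMT3B and EZH1 lost). With the stroma and blood sum as a covariate, chosen after the data were seen, 0 passed in CRPC, 3 in ENZR and 2 in ENZS against CRPC. Without ENZS mouse 80, also chosen then, the TET2 call in ENZS against CRPC was lost. A required log2 difference of at least 1 left 0 in POST-CX and CRPC and 1 in ENZS, ENZR and ENZS against CRPC, which was UHRF1. With no filter, 1 passed in POST-CX and, with the index, 0 in ENZS. A pseudocount of 0.1 gave, with the index, 1 in CRPC and 0 in ENZS. Without POST-CX mouse 91 and ENZR mouse 87 the counts with the index were 2 in POST-CX and 0 in ENZS. An index of replication genes gave 2 in POST-CX, one of mitosis genes 1 in CRPC, and leaving out the 2 farthest tumours 5 correlations. The cause of these shifts was not tested. Leaving out each tumour gave 1 to 4 members in POST-CX, 1 in CRPC, 5 to 6 in ENZS, 5 to 7 in ENZR, 3 to 4 in ENZS against CRPC, 0 in both relapse steps and their difference, and 4 to 6 slopes, with 63 of 8640 values losing their call. TPM give no read depth, so the precision of low genes such as TET1 and DNMT3B is unknown.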
